A study of Saccharomyces cerevisiae with 8 samples.

Results

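Chromatin accessibility along the synthetic human *HPRT1* locus was compared between yeast that carried the locus as an episome and yeast that carried it integrated on chromosome XI. The assay was ATAC-seq, which uses a transposase to insert sequencing adapters into open DNA, and the members described are the peaks called on the 100735-bp locus or on the vector behind it. These were all peaks listed on the synthetic sequence and none of those on yeast chromosomes, 141 of the 4268 peaks in the 4 *HPRT1* libraries. The series holds 8 libraries, of which the other 4 carry *HPRT1R*, the same locus reversed but not complemented.

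Both strains derive from BY4741, a haploid laboratory strain that carries *his3Δ1*, *leu2Δ0*, *met15Δ0* and *ura3Δ0*. The episomal strain held the locus on a circular yeast assembly vector with a centromere, a replication origin and *LEU2*, and was grown in SC-Leu medium to select for it. In the integrated strain, derived from the episomal one, the locus had been moved by Cre recombination into a landing pad at *YKL162C-A* and the cells were grown in YPD without selection. Context, medium and the number of copies per cell therefore cannot be told apart here. From whole-genome sequencing the study estimated copy number, and it reported greater episomal ATAC-seq depth even after correcting for that estimate. No such correction was made here. Each strain was represented by 2 clones. All cultures started at an OD of 0.1 and reached about 0.6 after 6 h at 30 °C. Cells were treated with zymolyase for 30 min, tagmented for 30 min at 37 °C and amplified for 11 PCR cycles.

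*HPRT1* encodes hypoxanthine phosphoribosyltransferase, an enzyme of purine salvage, and its human promoter lies in a CpG island. Yeast has no copy of this sequence, so its peaks show where human DNA was accessible in yeast. In yeast itself, accessible sites are mostly the nucleosome-depleted regions upstream of genes, where stretches of A or T and bound factors keep nucleosomes away.

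The vector was used to check the labels. It carried 4 peaks in each episome clone and 0 in each integrated clone. Joined over the libraries, the vector places in both episome clones lay at 103859 to 104558, 105599 to 106652 and 110609 to 113926, and a weaker one at 105069 to 105425 was called only in episome clone 2. At the longest, 110609 to 113926, the fold enrichment was 4.24 and 4.10 in the episome clones. Cre exchange leaves the vector behind, so that these sequences are not part of the integrated locus.

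Several stretches of locus sequence are shown here because the results return to them. Positions count from the left end of the synthetic sequence in the authors' custom reference, in which *HPRT1* reads in its native direction. The locus comes from human chromosome X, and no human build was used. The first stretch, from 30719 to 30941, is the part of the *HPRT1* promoter that the study's segment sequences cover, taken as the reverse of an *HPRT1R* segment, and it lies in a place with a peak in all 4 libraries. The episomal peaks span it, whereas the integrated peaks of that place cover it only up to 30810 in clone 1 and begin at 31101, past its end, in clone 2. Capitals mark GC boxes, GGGCGG, searched on both strands.
*HPRT1* promoter: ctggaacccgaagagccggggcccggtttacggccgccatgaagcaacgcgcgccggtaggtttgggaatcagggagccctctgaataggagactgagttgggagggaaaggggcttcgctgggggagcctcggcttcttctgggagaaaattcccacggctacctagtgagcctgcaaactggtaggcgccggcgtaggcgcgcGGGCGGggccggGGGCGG

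In other strains, the study inserted the *Sphis5* marker, a fission yeast gene that restores histidine synthesis, at 4 transcription start sites it had mapped in *HPRT1*. The 3 shown lie in places that were called in both episome clones and in neither integrated clone. Each run joins the 2 primer arms of 40 bases that flank the insertion, the upstream arm in lower case and the downstream arm in capitals.
*HPRT1* 13493: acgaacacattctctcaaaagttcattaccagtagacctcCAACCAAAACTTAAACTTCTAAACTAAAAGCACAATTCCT
*HPRT1* 56086: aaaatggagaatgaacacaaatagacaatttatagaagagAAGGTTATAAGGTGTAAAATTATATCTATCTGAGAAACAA
*HPRT1* 56401: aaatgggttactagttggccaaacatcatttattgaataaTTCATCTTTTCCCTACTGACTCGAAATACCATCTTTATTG

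Integrated *HPRT1* carried fewer and narrower peaks than the episome. Episome clones 1 and 2 had 47 and 45 peaks on the locus, against 22 and 19 in integrated clones 1 and 2. Peaks covered 22.9% and 25.1% of the locus in the episome clones, against 7.41% and 6.81% in the integrated clones. Their median width was 448 and 512 bp in the episome clones and 263 and 317 bp in the integrated clones. In all 3 measures the contexts did not overlap. With 2 clones against 2, an exact two-sided permutation test cannot give a p below 0.333, and each of these comparisons reached that value (exact p = 0.333). The clones of a strain are taken as independent.

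The number of fragments behind each peak was recovered from its fold enrichment and p-value, which together determine both it and the local background that the peak caller used. The fold enrichment is the count plus 1 over the background plus 1. The median summit held 88 and 108 fragments in the episome clones, against 26 and 24 in the integrated clones (difference in means 73.0, exact permutation p = 0.333). Local background at the locus peaks was 5.79 and 6.74 times the genome-wide background in the episome clones, against 1.29 and 1.31 times in the integrated clones (exact permutation p = 0.333). The genome-wide background itself was 5.75 and 6.93 fragments in the episome clones and 6.70 and 6.00 in the integrated clones. Total read numbers are not part of the peak lists, so the depth of the libraries is known only through this background.

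Fold enrichment went the other way. Its median over the locus peaks was 2.45 and 2.31 in the episome clones, lower than the 2.94 and 2.93 in the integrated clones (difference of -0.55, exact permutation p = 0.333). The weakest peak called on the locus had a fold enrichment of 1.55 in both episome clones, but 2.09 and 2.19 in the integrated clones. In fragments, the weakest summit held 36 and 54 in the episome clones and 20 and 18 in the integrated clones. The lists therefore reach down to different levels of enrichment in the 2 contexts. No integrated peak had a fold enrichment as low as the weakest episomal ones. The medians are over these unequal lists and were not computed for lists of equal length.

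**Figure D1:**
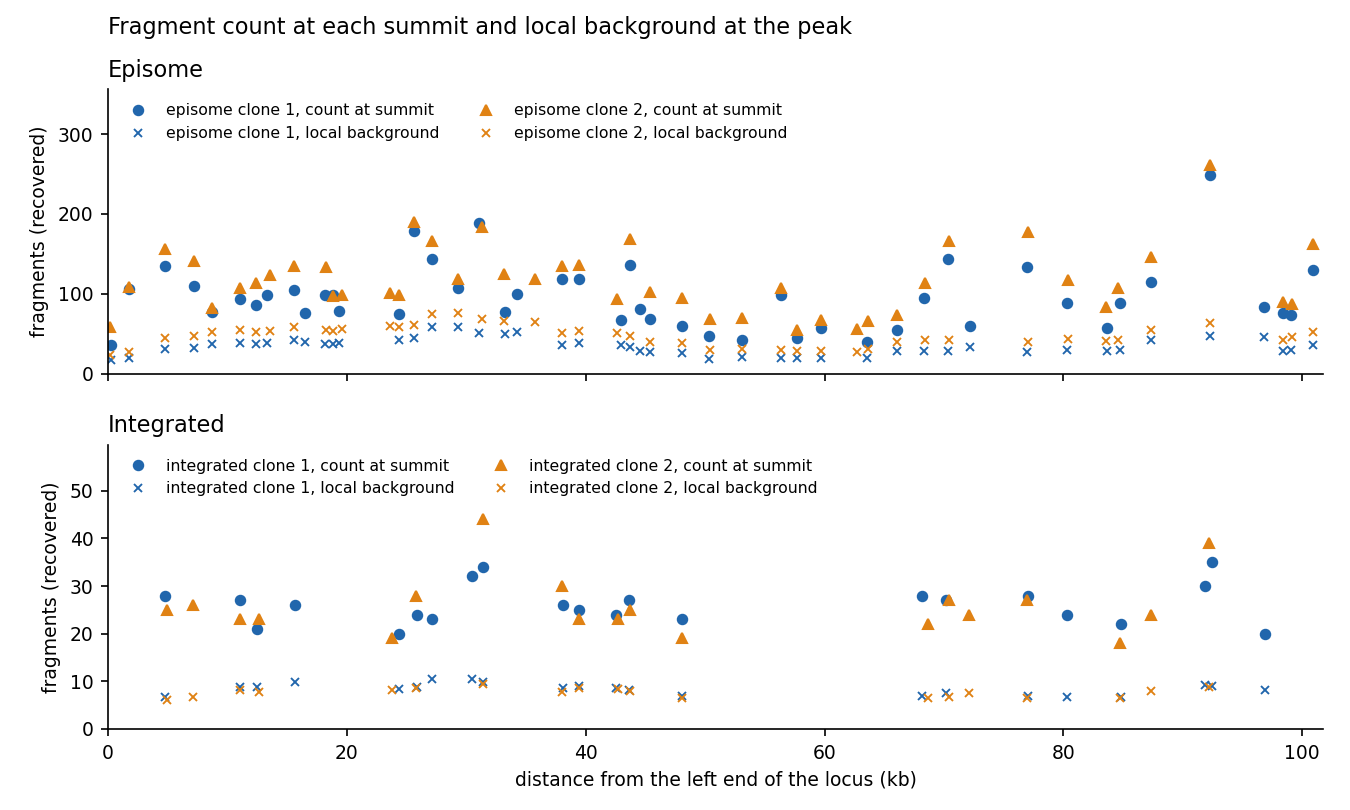
Recovered fragment count at each summit (filled symbols) and local background at the same peak (crosses) against the distance from the left end of the locus in kb, for the episome clones above and the integrated clones below. The vertical axes differ. Episomal summits reach 249 and 262 fragments and integrated summits 35 and 44.

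In the episomes the local background was not even along the locus. It was lowest at the leftmost peak, with 16.5 fragments in episome clone 1 and 23.1 in episome clone 2. That peak lies at the start of the reference sequence, with hardly any sequence to its left. The background was 19.2 and 27.5 fragments at 831 and 30.5 and 44.5 at 4231. An effect of the sequence end on these values was not tested. The local background was also low over the stretch in which the integrated clones had no peak. There episome clone 1 had 18.7 to 27.7 fragments across the peaks from 50142 to 66061, and episome clone 2 had 26.7 to 39.6. It was highest at the peak at 29205, with 58.5 fragments in episome clone 1 and 76.2 in episome clone 2. In the integrated clones it stayed between 6.70 and 10.5 fragments in clone 1 and between 6.00 and 9.50 in clone 2. Of the integrated peaks, 6 of 22 in clone 1 and 1 of 19 in clone 2 had a background within 5% of the genome-wide level, the lowest value the caller allows.

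Peaks of the 4 libraries that overlapped by at least 1 bp were joined into places, which gave 50 on the locus. Where a library had more than 1 peak at a place, its values are those of the peak with the highest fold enrichment. Of these, 42 had a peak in both episome clones. After integration, 15 of the 42 (35.7%) had a peak in both integrated clones, 6 (14.3%) in 1 of them, and 21 (50.0%) in neither. These are called persistent and lost below where both integrated clones or neither had a peak, and lost says only that no peak was called. On the yeast chromosomes of the same libraries, 701 places had a peak in both episome clones, of which 82.5% were called in both integrated clones, 12.1% in 1 and 5.42% in neither. Places called in both episomes but in no integrated clone thus made up a larger share on *HPRT1* than on the yeast chromosomes, in the same 4 libraries. On *HPRT1R*, in its own 4 libraries, 47 places had a peak in both episome clones. Of these, 28 were called in both integrated clones, 8 in 1 and 11 in neither. Because clones are the replicates and places are not, no test of these differences over places was made.

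Of the 15 places with a peak in both integrated clones, 0 had no peak in either episome clone. The same share was 4.89% of 756 nuclear places, so a count of 0 among 15 is near that background. The count was 3 with a reciprocal overlap of at least 50% and 3 when every library was given the same number of peaks. The only place confined to an integrated library lay at 23793 to 23934 in clone 2, with 19 fragments and a fold enrichment of 2.19. All 22 locus peaks of integrated clone 1 overlapped an episomal peak, as did 18 of 19 in integrated clone 2. Peaks covered 22.9% and 25.1% of the locus in the episome clones, and no matching share of nuclear peaks is given here. Of the remaining 7 places, 5 were called in 1 episome clone only and 2 in 1 episome clone and 1 integrated clone.

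**Figure D2:**
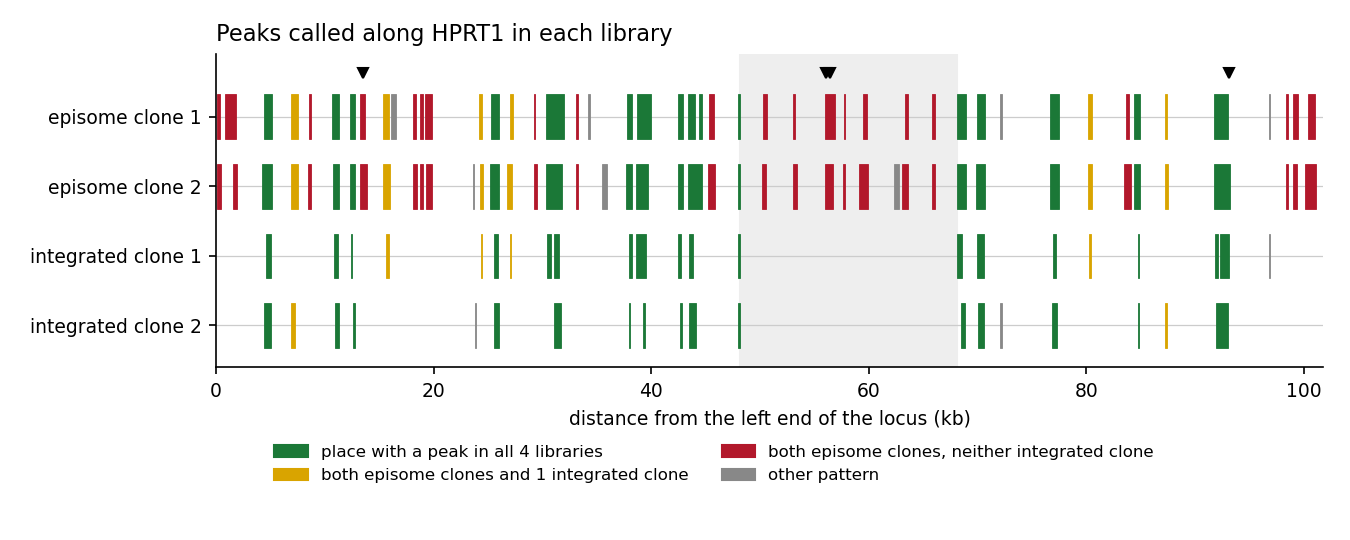
Peaks called along the locus, with 1 row per library and the distance from the left end in kb on the horizontal axis. Colour gives the libraries in which the place was called, triangles mark the *Sphis5* sites, and grey shading marks the 19966 bp without a peak in either integrated clone. Of the 42 places in both episome clones, 15 are green, 6 yellow and 21 red.

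The place with the highest episomal fold enrichment among the 15 that persisted lay at 91714 to 93170. It had 249 and 262 fragments at its summit in the episome clones, against 35 and 39 in the integrated clones. The fold enrichment was 5.14 and 4.13 in the episome clones and 3.61 and 4.11 in the integrated clones. Both episomal counts and both episomal fold enrichments exceeded those of the integrated clones, though for the fold enrichment the nearest clones, 4.13 and 4.11, hardly differed. The summit was at 92237 in both episome clones, and at 92455 and 92201 in the integrated clones.

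The place at 76605 to 77509 followed. Its summits held 133 and 177 fragments in the episome clones, against 28 and 27 in the integrated clones. The fold enrichment was 4.78 and 4.36 in the episome clones and 3.69 and 3.76 in the integrated clones, again without overlap. The summits of the 4 libraries fell between 76963 and 77024.

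At 69867 to 70677 the episome clones had 144 and 166 fragments and the integrated clones 27 each. The fold enrichment there was 4.88 and 3.93 in the episome clones, against 3.29 and 3.59 in the integrated clones. At 4231 to 5149, the persistent place nearest to the left end, the episome clones had 135 and 156 fragments and the integrated clones 28 and 25. Here the fold enrichment overlapped between contexts, with 4.32 and 3.45 in the episome clones and 3.77 and 3.72 in the integrated clones. At 43362 to 44689 it was 3.99 and 3.54 in the episome clones, on 136 and 168 fragments, and 3.03 and 2.88 in the integrated clones, on 27 and 25 fragments.

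The *HPRT1* promoter lies in the place at 30283 to 31942, the widest on the locus in the episomes. A single peak of 1660 and 1508 bp covered it in the episome clones. In integrated clone 1 the same stretch carried 2 peaks, the stronger of 452 bp, and in integrated clone 2 there was 1 peak of 572 bp. The summit count was 189 and 184 in the episome clones, against 34 and 44 in the integrated clones, where 44 was the highest count on the locus. The fold enrichment was 3.64 and 2.68 in the episome clones and 3.22 and 4.29 in the integrated clones, so neither context was higher in both clones. Episomal summits lay at 31104 and 31319 and integrated summits at 31423 and 31402. No other place lay within 1 kb of the promoter stretch.

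The promoter window, 399 bases of which the stretch printed above is the left part, was 69.9% G or C and held 40 CpG dinucleotides, the most of the 27 sequence windows available. GC boxes occurred in 3 of the 27 windows (11.1%). Windows that overlapped a persistent place were 35.3% to 69.9% G or C (n = 5, median 42.6%). Those that overlapped a place lost on integration were 38.1% to 58.9% (n = 5, median 43.4%), and the 13 that overlapped no place were 25.3% to 50.6% (median 36.1%). These classes overlapped in base composition, but an overlap of 1 bp was enough to place a window. When at least 50% of a window had to overlap, only the promoter window remained persistent, against 4 lost windows of 38.1% to 58.9%. The windows cover 10773 of the 100735 bp, so the base composition of the classes cannot be compared from them.

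Over the 15 persistent places, the summit count was a median of 4.88 times higher in the episomes, from 3.38 to 7.11 times, and at each of the 15 both episome clones exceeded both integrated clones (exact permutation p of the median = 0.333). The local background differed by a similar factor, with a median of 5.18 and a range from 4.68 to 6.18. The fold enrichment had a median ratio of episome to integrated of 0.98 and a range from 0.72 to 1.27 (exact permutation p = 1.00). It was higher in both episome clones at 5 places, lower in both at 3, and overlapped at 7. No matching nuclear share is given for these comparisons of both clones, nor for that of the counts. The 15 places were selected for a peak in both integrated clones, where the lowest fold enrichment called was 2.09 and 2.19. A place weak in the episomes could thus enter only with a higher integrated value, so the median ratio depends on this selection. The ratio was 1.20 at 91714, the place strongest in the episomes, and 0.72 at 42440, the weakest. At the 573 nuclear places with a peak in all 4 libraries the median ratio of counts was 0.925 and that of fold enrichments 0.946.

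Peaks at persistent places were a median of 2.26 times wider in the episomes, from 1.14 to 3.34 times, against 1.03 times at the nuclear places. Where a library had 2 peaks at a place, only the width of the one with the higher fold enrichment entered. This was so in integrated clone 1 at 30283 and 91714 and in episome clone 1 at 43362. Both episomal peaks were wider than both integrated ones at 14 of the 15, and no matching nuclear share is given. The exception was the narrow place at 47967 to 48183. There the widths were 162 and 207 bp in the episome clones and 177 and 145 bp in the integrated clones. The summit counts of wide and narrow peaks were not matched, and the part of the count in the width was not tested.

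**Figure D3:**
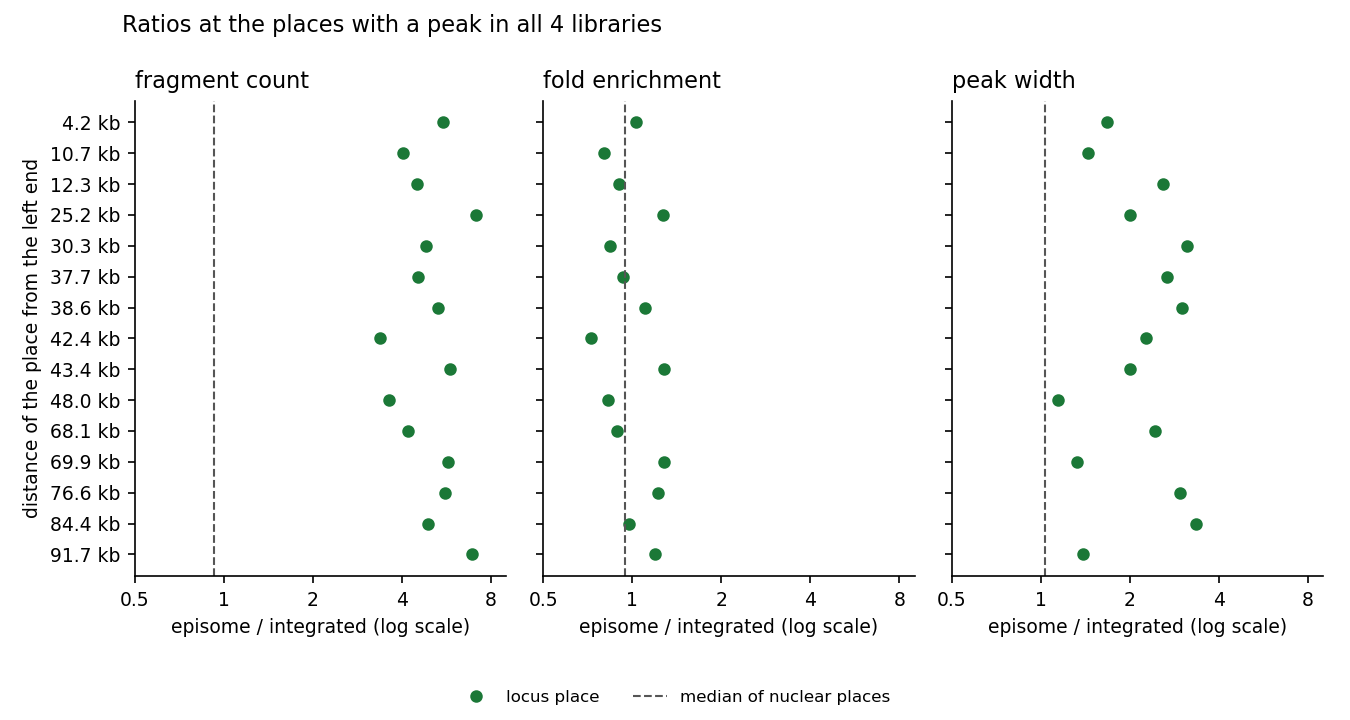
Ratio of episome to integrated (geometric means of the 2 clones, log scale) at each of the 15 places with a peak in all 4 libraries, from left to right for the summit count, the fold enrichment and the peak width. Rows give the distance of the place from the left end of the locus. Dashed lines are medians over 573 nuclear places, and count ratios run from 3.38 to 7.11 while fold enrichment ratios run from 0.72 to 1.27.

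At persistent places the summits of the 2 contexts lay close together, but joining overlapping peaks into places bounds this distance in advance. The mean distance between episomal and integrated summits of a place had a median of 96 bp over the 15 places and a range from 8 to 265 bp (exact permutation p = 1.00, so no larger than after exchanging clones between contexts). Without integrated clone 1 the median was 48.5 bp. Between the 2 episome clones the median distance was 37 bp, and between the 2 integrated clones 79 bp. On the yeast chromosomes the distance was 91 bp between contexts, 73 bp between the episome clones and 69 bp between the integrated clones. The strongest integrated summit of each persistent place lay, in both clones, inside the peak of both episome clones. Places consist of overlapping peaks and the integrated peaks were mostly the narrower, so this was largely set by the joining. No matching nuclear share is given. The farthest pair of integrated summits lay 498 bp apart, at 68071 to 68971.

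Persistent places kept much of their order of strength. Spearman's rho of the fold enrichment across the 15 places was 0.81 between the means of the 2 contexts, 0.96 between the episome clones and 0.66 between the integrated clones. These are descriptions over 15 places that share libraries and sequence.

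The remaining persistent places lay at 25187, 68071, 37671, 38578, 84359, 47967, 12331, 10694 and 42440, with a mean episomal fold enrichment that ran down from 3.54 at 25187 to 1.85 at 42440. Their mean integrated fold enrichment was between 2.49 and 3.35. At 42440, 10694 and 47967 both integrated clones had the higher fold enrichment. At 42440 the episome clones had 1.88 and 1.83 on 67 and 94 fragments, and the integrated clones 2.59 and 2.54 on 24 and 23 fragments.

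The places called in 1 integrated clone were 4 in clone 1, at 15305, 24192, 26779 and 80098, and 2 in clone 2, at 6905 and 87204. Their episomal fold enrichment ranged from 1.75 to 3.39 in clone 1 and began at 1.65 in clone 2. The highest was at 6905 to 7550, with 110 and 141 fragments in the episome clones and 26 fragments in integrated clone 2 alone.

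The 21 places lost on integration were on the whole weaker in the episomes than those that persisted. Their median fold enrichment was 2.43 in episome clone 1, against 3.26 for the persistent places, and 2.14 in episome clone 2, against 2.68. Their median summit count was 76 in episome clone 1, against 119 for the persistent places, and 90 in episome clone 2, against 136. They were also narrower, with a median of 300 and 368 bp in the episome clones, against 680 and 828 bp for the persistent places. The classes nevertheless overlapped, and some of the episomal peaks with the highest fold enrichment were among the lost ones.

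**Figure D4:**
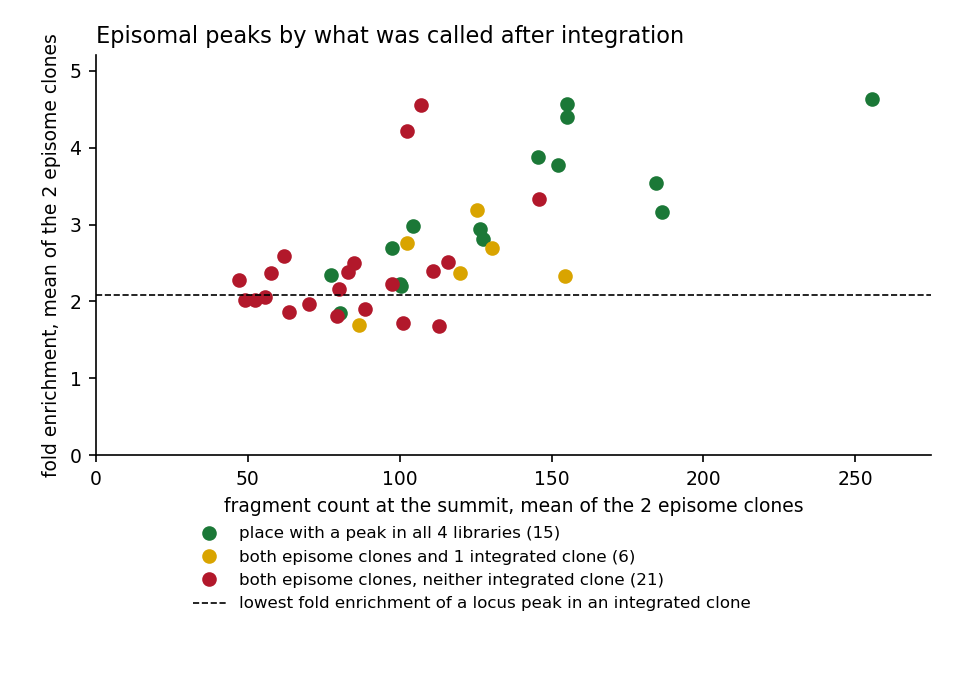
Mean fold enrichment against mean summit count of the 2 episome clones for the 42 places called in both, coloured by what was called after integration. The dashed line is the lowest fold enrichment of a locus peak in an integrated clone, 2.09. Lost places (red) gather at low counts, and 3 of them have a mean fold enrichment above 3.

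The lost place with the highest mean fold enrichment lay near the left end, at 831 to 1911. It had the highest fold enrichment of any locus peak in episome clone 1, 5.29, and 3.83 in episome clone 2, on 106 and 108 fragments. These counts lay below the medians of the persistent places, 119 and 136. The local background was low, 19.2 and 27.5 fragments, near the start of the reference sequence. Whether that sequence end raised the fold enrichment was not tested. The summits were at 1763 and 1762, 1 bp apart. The peak was 1030 bp wide in episome clone 1 and 320 bp in episome clone 2. Neither integrated clone had a peak on the first 4401 bp of the locus.

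The next by mean fold enrichment was at 55973 to 56856. It had 98 and 107 fragments in the episome clones at summits 1 bp apart, 56335 and 56334, with a fold enrichment of 4.83 and 3.59. The nearest peak in the integrated clones ended at 48143 in clone 1 and at 48144 in clone 2, more than 7 kb to the left. By −log10 p it ranked 9 of 47 locus peaks in episome clone 1 and 11 of 45 in episome clone 2.

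The third lay across the right end of the locus, at 100037 to 101046. It had 130 and 162 fragments in the episome clones and a fold enrichment of 3.56 and 3.11. Its summit was at 100901 in both, 166 bp past the end of the locus and in the vector. Because that sequence is not next to the integrated locus, the absence of the peak there does not compare like with like. Without it, 20 of 41 places were lost. Next in order were the places at 59053 to 59901, with a fold enrichment of 2.83 and 2.34 on 57 and 67 fragments, and 18131 to 18438, with 2.57 and 2.45 on 98 and 134 fragments.

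How far the loss goes with the lower counts can be stated as arithmetic. Of the 21 lost places, 12 had a mean episomal fold enrichment at or above 2.09, the lowest that was called on the integrated locus, as did 14 of the 15 persistent places. The 12 include 65 and 831, near the start of the reference sequence, where the episomal background was low. When the episomal count of each place was divided by 4.88, the median ratio at the persistent places, 7 of the 21 lost places came out at 20 fragments or more, the larger of the lowest counts called in the integrated clones. So did 12 of the 15 persistent places and 5 of the 6 called in 1 integrated clone. The 7 lost places include 831, with 21.9 fragments after division, 55973, with 21.0, and 100037, with 29.8, whose summit lies in the vector. They also include 29205 and 33083, whose mean episomal fold enrichment of 1.68 and 1.72 lay below 2.09. When 5.24 was used in place of 4.88, the ratio of local backgrounds at the 10 persistent places whose integrated background was above the lowest level the caller allows, 5 of the 21 lost places, 9 of the 15 persistent places and 4 of the 6 called in 1 integrated clone reached 20 fragments, and 55973 fell short with 19.6. Both divisors come only from places selected for a peak in every library, where the count ratio ran from 3.38 to 7.11. The ratio at the lost places themselves is not known. Whether DNA at the lost places was less accessible after integration or only less often sampled was not tested.

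The number of lost places depended on the length of the lists. When each library was given 19 locus peaks, those with the highest −log10 p, 17 places were shared by both episome clones. Of these, 10 were in both integrated clones, 3 in 1 and 4 in neither (23.5%). The 4 lost places were at 831, 26779, 55973 and 100037. Of these, 26779 had been called in integrated clone 1 with the full lists, and 100037 has its summit in the vector. With these shortened lists 3 of the 14 places in both integrated clones, at 10810, 42440 and 47967, were in neither episome. No nuclear share is given for these shortened lists. When only peaks at or above the lowest integrated fold enrichment were kept, 10 of 28 places in both episomes (35.7%) were in neither integrated clone. The 10 include 100037. Under the same limit the nuclear share was 5.47%.

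Losses were spread along the locus. Of the places in both episomes, 7 of 12 were lost in the leftmost 20 kb, 2 of 8 between 20 and 40 kb, 6 of 9 between 40 and 60 kb, 2 of 5 between 60 and 80 kb, and 4 of 8 in the remainder. The remainder includes 100037, with its summit in the vector. The stretch from 48145 to 68110, 19966 bp long, held no peak in either integrated clone. The longest such stretch was 4390 bp in the episomes, from 72215 to 76604. The next longest in the integrated clones was 7927 bp, from 15866 to 23792.

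Inside the long stretch the episomes had 7 places called in both clones, from 50142 to 66061, and 1 called in episome clone 2 only, at 62313. They had 7 peaks in episome clone 1 and 8 in episome clone 2, which covered 12.8% and 18.8% of the stretch. The episomal peaks here were weak in absolute terms. Their median summit count was 47 and 67.5 fragments in the episome clones, against 96.5 and 118 for the locus peaks outside the stretch. Their median fold enrichment was 2.19 and 2.16 inside, and 2.55 and 2.45 outside. The local background was lower as well, with a median of 19.6 and 29.0 fragments inside, and 36.2 and 51.9 outside.

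Only the place at 55973 stood out within this stretch. Among the 19 strongest peaks of each episome clone, it was the only one that fell inside. With these shortened lists the longest stretch without a peak was 11330 bp in the episomes, from 44643 to 55972, against 19966 bp in the integrated clones. The 5 sequence windows within the stretch had 33.8% to 43.4% G or C (median 42.1%), and the 22 others had the same median. In the reversed locus, *HPRT1R*, the mirrored stretch runs from 32626 to 52591. It had 11 of 52 and 13 of 53 locus peaks in the *HPRT1R* episome clones. In the integrated *HPRT1R* clones it had 7 of 38 and 7 of 33.

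At the *Sphis5* sites the contexts differed from site to site. Sites 56086 and 56401 both lay within the lost place at 55973, at 249 and 66 bp from the summit in episome clone 1 and at 248 and 67 bp in episome clone 2. The nearest integrated peak was 7943 bp away from site 56086 in clone 1 and 7942 bp in clone 2. Site 13493 lay within the lost place at 13194 to 13841, which had 99 and 123 fragments and a fold enrichment of 2.54 and 2.26 in the episome clones. The nearest integrated peak was 973 bp away in clone 1 and 740 bp in clone 2.

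Site 93086 lay at the right edge of the persistent place at 91714. The peak of episome clone 2 spanned it, and that of episome clone 1 ended 99 bp to its left. The integrated peaks ended 4 bp and 102 bp to its left in clones 1 and 2. Of the 4 sites, then, 3 lay in 2 places called only in the episomes and 1 lay at a place called in every library. Transcription from these sites was not analysed here.

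Both ends of the locus carried peaks in the episomes and none after integration. The leftmost episomal place, 65 to 450, had 36 and 58 fragments in the episome clones, with a fold enrichment of 2.11 and 2.45. Its local background, 16.5 and 23.1 fragments, was the lowest on the locus, at the start of the reference sequence. Whether that sequence end raised the fold enrichment was not tested. The first peak of the integrated clones began at 4639 in clone 1 and at 4402 in clone 2. On the right, the last integrated peak ended at 96891 in clone 1 and at 92984 in clone 2, which left 3844 and 7751 bp without a peak. The episomes had 3 places called in both clones beyond 98 kb, at 98297, 98945 and 100037. The first pair was lost, and the place at 100037, whose summit lies in the vector, was not called either. The locus continues into the vector in the episome and into chromosome XI after integration, so that its neighbours change at both ends.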

How the data were processed

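ATAC-seq peak lists of 4 libraries (2 clones each of the *HPRT1* episome and of integrated *HPRT1*) were used, grouped by their labels. The authors trimmed reads, aligned them with Bowtie2 2.2.9 to sacCer3, to which the locus with its vector had been added as a sequence of its own, and ran MACS2 2.1.0 on paired-end fragments, per library, keeping duplicates and without a control. No shift to the transposase cut site is stated. Each deposited list holds, per peak, a ratio (the fold enrichment), −log10 p-values and −log10 q-values, and a display score, which was not used.

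Summit counts and local backgrounds were solved from the ratio and the −log10 p, with a misfit of at most 0.001 for 99.4% to 99.7% of peaks and for all locus peaks. The procedure returned the true count for 100% of 1000 simulated peaks and the true pattern of libraries for 100% of 300 simulated places. The simulated places lay far apart, with peaks around a shared summit. They therefore checked only that the procedure ran correctly, not how it treats close, shifted or split peaks. The genome-wide background is the median over nuclear peaks. Values per library were compared by exact two-sided permutation over the 4 libraries. Counts of places are described without a test. Depth limits precision, but read totals are unknown, so no sampling intervals are given.

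*HPRT1* windows are *HPRT1R* segment sequences reversed, as the study's methods describe the design. Their placement was checked against 1 *HPRT1R* insertion site, with a difference of 0 bp, but not against *HPRT1* primers. Some of these sequences are not reported here.

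Places were named by rule. These were the 5 persistent and the 5 lost places with the highest mean episomal fold enrichment, those at the *Sphis5* sites, the promoter, the ends, the vector and the longest integrated gap, and those in integrated clones only. The persistent places were also listed. Any other place was chosen with its values in view. The members and lists were chosen with earlier results of these data known. Python 3.11.15, NumPy 2.4.6, SciPy 1.17.1 and matplotlib 3.10.9 were used. Alternatives were stricter q limits, other overlap rules, equal list lengths, a fold enrichment limit, each clone left out and a replicate block. Mitochondrial peaks and coverage tracks were not used here.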

Additional observations from a re-analysis of the deposited data

How the results depend on the processing

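Differences between contexts in peak number, covered share, width, summit count, local background and median fold enrichment kept their direction in the alternatives run. Each was run with stricter q limits, with each clone left out and with the replicate block. Equal list lengths and the fold enrichment limit were not applied to these measures. The counts of places moved more. Places in all 4 libraries numbered 15, but 5 with −log10 q limited to 5 or more and 8 with a reciprocal overlap of at least 50%. Places in both episomes and neither integrated clone numbered 21, but 10 among peaks at or over the lowest integrated fold enrichment and 4 with equal list lengths, where places in 1 integrated clone numbered 3 in place of 6. Places in both integrated clones and neither episome numbered 0 in the full lists, and 1, 3 and 3 under the fold enrichment limit, with reciprocal overlap and with equal list lengths, and 0 to 1 with a clone left out. The nuclear share in neither integrated clone was 7.60% with reciprocal overlap and 10.1% to 17.4% with a clone left out, against 5.42%. Leaving out a clone asks for a peak in fewer libraries. The longest stretch without an episomal peak, 4390 bp, was 11330 bp with equal list lengths, an alternative chosen after seeing the data.

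The ratio of fold enrichment at shared places changed side of 1, with 1.03 and 1.20 with −log10 q limited to 3 and 5 or more, and 0.90 to 1.06 with a clone left out. The GC content of windows at persistent places minus that at lost places was -0.75 percentage points, and 24.4 when a window had to overlap by at least 50% of its length, which left 1 persistent window. The difference in median width, 190 bp, was 92.5 bp with −log10 q limited to 5 or more.

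Clone numbers are shared between contexts without a stated pairing. Differences between clones 1 and 2 in fold enrichment had a correlation between contexts of 0.041 over 573 nuclear places and of -0.41 over the 15 persistent places. The replicate block gave the same differences in means (25.5 peaks) by construction, under either pairing, with a smallest possible exact p of 0.5.

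With 2 clones per context no test could pass 0.05, and the lowest summit counts called on the integrated locus, 20 and 18 fragments, limit what can be seen there.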
